A study of Rattus norvegicus with 4 samples.

Results

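Grifin, the galectin-related protein of the lens, and the galectin genes measured with it were described in the hippocampus of sedentary and wheel-running rats. The 9 genes are Grifin, Lgals1, Lgals3, Lgals3bp, Lgals4, Lgals5, Lgals7, Lgals8 and Lgals9. They were found by the transcript accession that the array gives for each probe, and they are 9 of 8899 genes that could be named in this way, with 10 of 41012 probes because Lgals8 has 2. The family was chosen by the log2 ratios of Grifin itself, which earlier processing of these chips had called lower in both running groups. The ratios of Grifin are therefore given as a description, and the other members were taken because they belong to the family.

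Male Wistar rats were 10 weeks old at the start and were kept in standard cages as the sedentary group (Sed, 10 rats), with a running wheel without resistance (WR, 8 rats) or with a running wheel with resistance (RWR, 8 rats). Running was voluntary and lasted 4 weeks. The resistance in RWR was 4.5 g in the first week and was then raised to 30% of body weight. The hippocampi were taken on the day after the last day of running. RNA was pooled within each group, so that no value belongs to a single rat. The paper does not state how many rats of a group each pool held. The Sed and WR pools were set against each other on chips 1 and 2 of a rat whole-genome oligo array, and the Sed and RWR pools on chips 3 and 4. The running pool carried Cy5 on chips 1 and 3 and Cy3 on chips 2 and 4. A pair of chips swaps the dyes of the same pools, which leaves 1 biological replicate a comparison, and running could not be tested against sedentary. An SD below is that of the 2 chips of a pair, and it holds any bias of the dyes and the error of labelling and hybridization. It does not hold the spread between rats. The Sed group served in both comparisons, so the WR and RWR ratios are not independent of each other.

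Galectins are small lectins that bind β-galactosides on glycoproteins and glycolipids, both outside the cell and in the cytosol. Prototype galectins have a single carbohydrate recognition domain, tandem-repeat galectins have a pair of such domains on a single chain, and galectin-3 joins its domain to a long flexible tail. Grifin has the galectin fold but is known as a soluble protein of lens fibre cells, and in the rat it lacks the binding to lactose that defines the family. In the brain, galectin-1 is known from astrocytes and neural stem cells, and galectin-3 from activated microglia.

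RefSeq promoter sequences (assembly GRCr8) could be matched to 7 of the 9 genes, and 4 of them are shown over the 250 bases before the annotated start, 5′ to 3′ on the strand of the gene. Grifin is shown because its ratio stands apart from those of the other members. Lgals3bp is shown for a letter pattern like the response element of interferon-regulated genes, and Lgals5 and Lgals9 are shown because their windows are near copies of each other. Grifin lies at chr12:19194579-19194828 on the plus strand, and its capitals mark a match to the GC box GGGCGG read on the opposite strand. Lgals3bp lies at chr10:104127849-104128098 on the minus strand, and its capitals mark a match to GAAA followed by any 2 bases and GAAA. Lgals5 (chr10:64355138-64355387) and Lgals9 (chr10:64428071-64428320) both lie on the minus strand of chromosome 10, and their capitals mark the longest run that the windows share.
Grifin: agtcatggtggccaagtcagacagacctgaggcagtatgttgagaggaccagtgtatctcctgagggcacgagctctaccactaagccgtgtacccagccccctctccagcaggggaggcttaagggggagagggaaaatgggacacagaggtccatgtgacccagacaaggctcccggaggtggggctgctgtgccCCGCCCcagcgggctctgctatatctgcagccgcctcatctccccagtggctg
Lgals3bp: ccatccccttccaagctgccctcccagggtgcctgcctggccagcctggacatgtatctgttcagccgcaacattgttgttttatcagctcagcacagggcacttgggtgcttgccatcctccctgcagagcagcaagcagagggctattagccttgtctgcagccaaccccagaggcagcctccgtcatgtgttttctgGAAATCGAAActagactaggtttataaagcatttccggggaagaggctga
Lgals5: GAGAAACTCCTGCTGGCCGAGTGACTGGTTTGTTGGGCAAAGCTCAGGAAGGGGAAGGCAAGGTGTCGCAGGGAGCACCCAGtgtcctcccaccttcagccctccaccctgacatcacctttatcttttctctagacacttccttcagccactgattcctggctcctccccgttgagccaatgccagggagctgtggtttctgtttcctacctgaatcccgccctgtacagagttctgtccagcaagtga
Lgals9: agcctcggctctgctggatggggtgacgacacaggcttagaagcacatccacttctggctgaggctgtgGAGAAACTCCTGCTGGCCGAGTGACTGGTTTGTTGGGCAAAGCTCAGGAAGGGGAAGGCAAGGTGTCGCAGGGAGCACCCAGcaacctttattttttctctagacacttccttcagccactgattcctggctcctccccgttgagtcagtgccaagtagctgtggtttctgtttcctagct
The Lgals5 and Lgals9 windows, taken with 50 bases after the start, aligned over 263 columns, of which 223 (84.8%) were identical. The shared run was 82 bases long, whereas the longest run in the other 20 pairs of members was 11 bases. The array names the genes at separate probes. The probe letters were not used here, so whether each probe tells Lgals5 from Lgals9 was not tested.

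Short patterns were searched for on both strands of windows that hold these 250 bases and the 50 bases after the start. The GGGCGG match of Lgals9 and the TGCTGA match of Lgals5 lie after the start and so are not in the letters shown. GGGCGG was found in Grifin, Lgals5, Lgals8 and Lgals9, and in 33.1% of 33469 RefSeq promoters. The paired GAAA pattern was found in Lgals3bp, Lgals5 and Lgals9, and in 3.92% of the promoters. In Lgals5 and Lgals9 this match lay on the strand opposite to the gene, in letters that the 2 windows have in common. TGCTGA, which is the core of the site bound by Maf factors of lens and other tissues, was found in Lgals3bp, Lgals5 and Lgals7 but not in the Grifin window, and in 18.4% of the promoters. TATAAA was found only in Lgals3bp among the 7 genes, where a match on each strand overlapped, and in 14.2% of the promoters.

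On the 4 chips, the median processed signal of all probes ranged from 62.2 to 74.6 (Cy3) and from 66.4 to 78.3 (Cy5). The processed signal is the brightness of a spot in arbitrary units after subtraction of background and normalization of the dyes. Between 67.5% and 82.5% of spots were well above background in a dye, and 0 were saturated. A probe is called measured below where both dyes were well above background on both chips of its pair, or on all 4 chips where values of all are used. Across 41008 probes, the running over sedentary ratios of chips 1 and 2 had a Pearson r of -0.76, and those of chips 3 and 4 had an r of -0.69 across 41007. The chips with the same dyes, 1 with 3 and 2 with 4, had an r of 0.71 and 0.70. Ratios over the chips thus tended to follow the dye and to turn over with the swap, so both chips are given for each member. Marker lists of brain cells were also read, but being measured is too common here to check the tissue label. Of the 41012 probes, 24953 were measured on all 4 chips, among them probes of the epithelial genes Krt14 and Krt18. All 4 hippocampal neuron genes with a named probe, among them Neurod2 and Calb1, all 7 astrocyte genes and all 6 microglia genes were measured on all 4 chips.

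Grifin was lower in both running pools on every chip. On the WR chips, its processed signal (probe A_42_P633019) was 105 and 106 in the Sed pool and 55.8 and 54.4 in the WR pool. On the RWR chips, it was 118 and 98.3 in the Sed pool and 58.7 and 48.5 in the RWR pool. The running and sedentary signals did not overlap, and all 8 readings were well above background. Grifin was chosen for its ratios, and the share of all probes without overlap was not counted. Nothing is therefore read from a lack of overlap, here or for the other members below.

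The log2 ratio of Grifin, running over sedentary, was -0.91 and -0.97 on the WR chips, with a mean of -0.94 ± 0.04 (SD of 2 chips), a level 47.9% lower than in Sed. It was -1.01 and -1.02 on the RWR chips, with a mean of -1.01 ± 0.0099 (SD of 2 chips), a level 50.5% lower. With the deposited ratios, the chips of a pair lay close together, with a dye term (the mean log2 ratio of Cy5 over Cy3 on the 2 chips) of 0.03 in WR and 0.007 in RWR on the log2 scale. The software's own error of the log2 ratio was larger than the gap between chips, at 0.24 to 0.25 on each chip. Its error model p was 0.000303 and 7.21e-05 on the WR chips and 2.47e-05 and 4.20e-05 on the RWR chips. These p-values describe the spots of a single chip and not the rats.

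**Figure D1:**
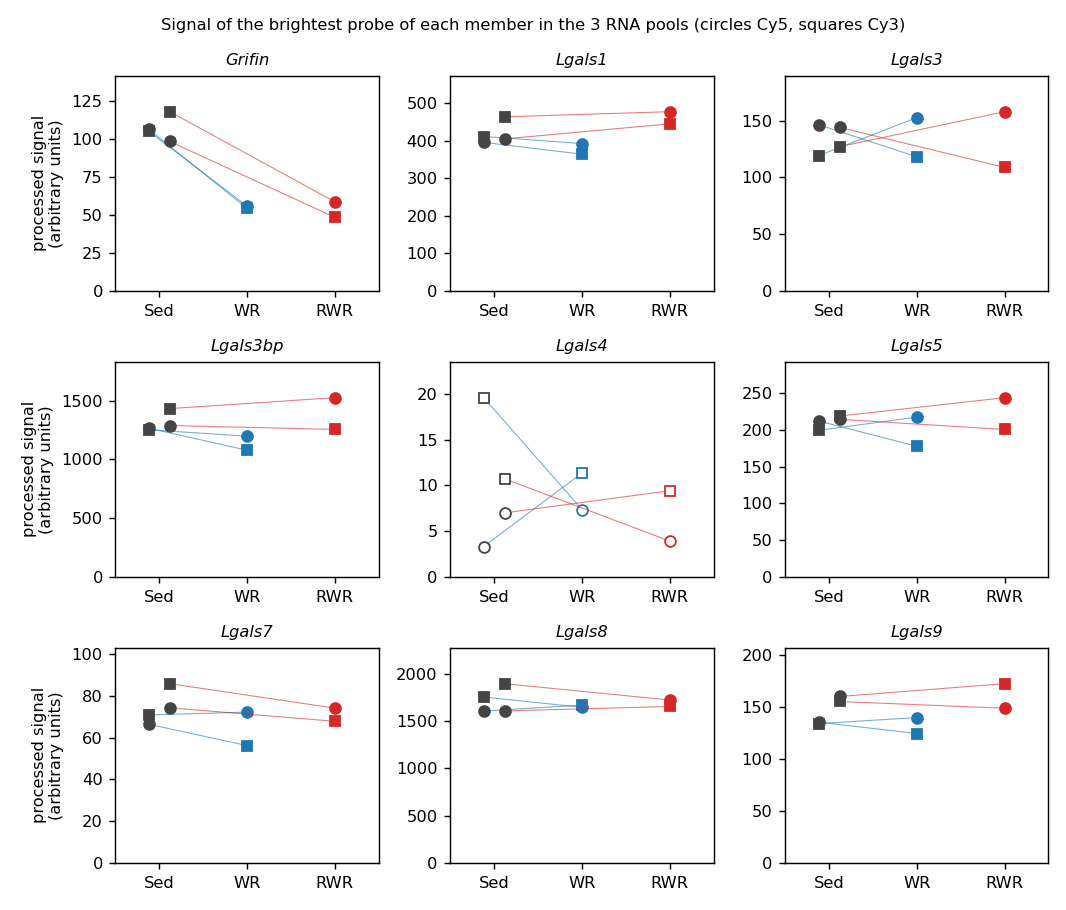
Processed signal (arbitrary units, linear axis from 0) of the brightest probe of each gene in the Sed, WR and RWR pools, with circles for Cy5, squares for Cy3, open symbols for readings not well above background, and a line joining the pools of each chip. Grifin lies between 98.3 and 118 in Sed and between 48.5 and 58.7 in the running pools, whereas the Sed and running readings of most other genes lie close together.

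A probe was called when its ratio was above 1.5 or below 0.75 on both chips of a pair with an error model p under 0.01 on both. Grifin was the only one of the 10 member probes called, lower in WR and lower in RWR. Of all probes, 0.0317% (13 of 41008) were called in WR and 0.0585% (24 of 41007) in RWR in either direction, and 0.0293% and 0.0488% were called lower. Because Grifin was chosen for these calls, nothing is read from its share. Among measured probes, Grifin ranked 5 from the lowest of 25492 in WR and 4 from the lowest of 26920 in RWR. Over all probes, dim ones included, it ranked 120 in WR and 362 in RWR. Among measured probes its rank was 59 and 9 with normexp background correction and 16 and 8 without background correction.

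The size of the Grifin ratio depended on the background correction. With normexp correction of the raw median brightness (offset 50), its mean log2 ratio was smaller, at -0.32 for WR and -0.55 for RWR, which is 20.1% and 31.5% lower than Sed. Without background correction it was -0.39 in WR and -0.47 in RWR. The chips of a pair then lay further apart in most cases, at -0.33 and -0.31 in WR and -0.73 and -0.36 in RWR with normexp, and at -0.51 and -0.27 in WR and -0.62 and -0.31 in RWR without correction. Grifin was not called in either comparison under either of these settings, although all 4 chips kept a ratio below 0. The raw brightness was also read in the same dye on the 2 chips of a pair. In Cy3, the spot read 425 for Sed beside 282 for WR and 401 for Sed beside 300 for RWR, and in Cy5 it read 311 for Sed beside 197 for WR and 308 for Sed beside 183 for RWR. The raw ratio of Grifin in WR over Sed was thus 0.664 in Cy3 and 0.633 in Cy5, and that in RWR over Sed 0.748 and 0.594. Such raw ratios set a chip of a pair against the other without scaling between chips, and that of all probes was not computed. The other measured members were also lower in raw brightness in WR, at 0.760 to 0.827 of Sed in Cy3 and 0.716 to 0.945 in Cy5. With the deposited ratios, their mean log2 ratios in WR were -0.15 to 0.02. In RWR they were at 0.914 to 1.06 of Sed in Cy3 and 0.790 to 1.01 in Cy5. The local background around the Grifin spot ranged from 81 to 84.5 for Cy3 and from 62 to 71 for Cy5. A spot can read above the local background without being detected. That of Lgals4, not well above background in any reading, read 203 to 257 in Cy3 and 83 to 106 in Cy5.

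**Figure D2:**
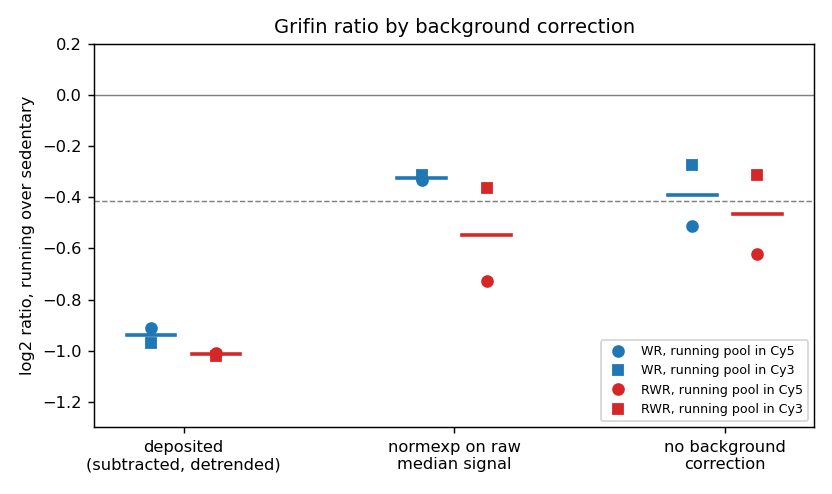
Log2 ratio of Grifin, running over sedentary, on each chip (circles, running pool in Cy5; squares, running pool in Cy3) and as the mean of the 2 chips of a pair (bar) under 3 background corrections, with the call limit of a 0.75-fold ratio as a dashed line. The deposited ratios lie between -1.02 and -0.91, and those of the other corrections lie between -0.73 and -0.27, all below 0.

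Grifin has a single spot on each chip. Of the 263 probes with 10 spots on a chip, 44 had a mean signal of 0.5 to 2 times that of Grifin, and the median SD of their spots was between 0.085 and 0.13 on the log2 scale. Among 8880 probes in the same range of signal, the median gap between the chips of a pair was 0.37 in WR and 0.31 in RWR on the log2 scale. Of their mean log2 ratios, 1% lay below -0.31 in WR and below -0.36 in RWR.

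The WR and RWR levels of Grifin lay closer to each other than to the sedentary level. After quantile normalization of the mean level of the dyes (Aquantile), the log2 level was 6.61 to 6.85 in Sed, 5.82 to 5.88 in WR and 5.58 to 5.75 in RWR. In the same dye, RWR minus WR was -0.08 in Cy5 and -0.30 in Cy3, and the 4 Sed readings spanned 0.25. That span is one of labelling and hybridization and holds no spread between rats.

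**Figure D3:**
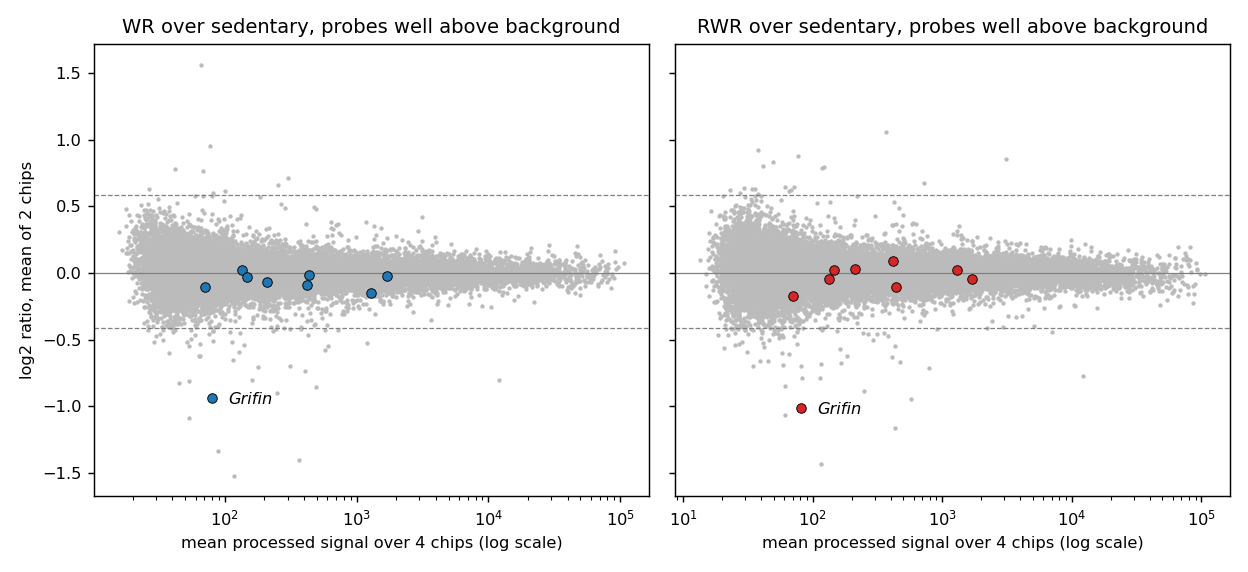
Mean log2 ratio of the 2 chips, running over sedentary, against the mean processed signal over 4 chips (log axis) for measured probes, with the members in colour and the call limits as dashed lines. Grifin lies at -0.94 in WR and -1.01 in RWR, and the other 8 measured member probes lie between -0.17 and 0.09 inside the cloud of probes.

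Among the other members, 8 probes of 7 genes were measured on all 4 chips, and none was called. Their 32 chip ratios lay between -0.40 and 0.36 on the log2 scale, with an error model p of 0.0662 to 0.943. Their mean log2 ratios ranged from -0.15 to 0.02 in WR (median -0.05, beside 0.0031 for all measured probes) and from -0.17 to 0.09 in RWR (median -0.01, beside 0.0044). The gap between the chips of a pair was 0.05 to 0.67 in WR and 0.08 to 0.72 in RWR, as large as or larger than most of these means.

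Of the prototype galectins, Lgals1 encodes galectin-1, which is secreted without a signal peptide and cross-links glycans at the cell surface. Its signal (A_44_P445070) was 411 and 395 in Sed beside 392 and 364 in WR, and 463 and 404 in Sed beside 477 and 444 in RWR. The WR readings lay below both Sed readings of their chips, and the RWR readings overlapped those of Sed. The log2 ratio was -0.07 and -0.12 in WR (mean -0.09 ± 0.04, SD of 2 chips) and 0.04 and 0.14 in RWR (mean 0.09 ± 0.07, SD of 2 chips). Lgals1 thus had ratios below 0 on both WR chips and above 0 on both RWR chips. The same-dye log2 level was 0.13 higher in RWR than in WR in Cy5 and 0.26 higher in Cy3, while the Sed readings spanned 8.68 to 8.72. All of these ratios are inside the error of a single chip, with an error model p of 0.507 to 0.838.

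Lgals5 encodes galectin-5, a rat galectin known from red blood cells and their precursors. Its signal (A_44_P423691) was 199 and 212 in Sed beside 217 and 178 in WR, and 219 and 214 in Sed beside 244 and 201 in RWR. The running pool was the brighter one on the chips where it carried Cy5 and the dimmer one where it carried Cy3, and the groups overlapped. The log2 ratio was 0.12 and -0.26 on the WR chips (mean -0.07 ± 0.27) and 0.16 and -0.10 on the RWR chips (mean 0.03 ± 0.18, SD of 2 chips). Of 10 listed red blood cell genes, 5 had a named probe and 0 were called. The median log2 ratio of the 4 measured in each comparison was 0.0041 in WR and 0.02 in RWR, and the list's summed signal was 31858 to 33594 in WR beside 31983 to 33074 in Sed, and 33842 to 39773 in RWR beside 33173 to 37344 in Sed.

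Lgals7 encodes galectin-7, which is best known from keratinocytes of the skin. Its signal (A_44_P236187) was 70.9 and 66.4 in Sed beside 72.2 and 56.2 in WR, and 85.8 and 74.3 in Sed beside 74.1 and 67.8 in RWR. The WR and Sed readings overlapped, and both RWR readings lay below those of Sed, by little in one pair of readings. The log2 ratio was 0.03 and -0.24 in WR (mean -0.11 ± 0.19, SD of 2 chips) and -0.21 and -0.13 in RWR (mean -0.17 ± 0.06, SD of 2 chips), the lowest mean after Grifin in RWR among the measured members. The mean in RWR was -0.08 with normexp and also without background correction. Of 9 listed epithelial genes such as Krt14 and Krt18, 8 had a named probe and 0 were called, and the median of those measured was 0.13 in WR (3 genes) and 0.13 in RWR (4 genes).

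Lgals3 encodes galectin-3, which is released by activated microglia and macrophages and binds to damaged lysosomes. Its signal (A_43_P12698) was 119 and 146 in Sed beside 153 and 118 in WR, and 127 and 144 in Sed beside 158 and 109 in RWR. The pool in Cy5 was the brighter one on all 4 chips, whichever group it came from. The log2 ratio turned over with the swap, from 0.36 to -0.31 in WR (mean 0.02 ± 0.47) and from 0.31 to -0.40 in RWR (mean -0.05 ± 0.51, SD of 2 chips). The dye term was 0.33 in WR and 0.36 in RWR on the log2 scale, beside a median size of 0.11 and 0.10 over the measured probes, of which 12.5% and 10.4% had a dye term larger than that of Lgals3. The SD of the 2 chips thus reflects the dye term, which the mean over the swap evens out. Both means of Lgals3 lay inside the software's own error of the log2 ratio, which was 0.21 to 0.22 on each chip. A difference of Lgals3 between the pools was not tested. Microglia genes, 6 with a named probe of 8 listed, had a median log2 ratio of 0.02 for WR and 0.06 for RWR with 0 called. The 2 brightest of them were Tyrobp, at 0.02 and 0.12, and Aif1, at 0.06 and 0.13. On both WR chips 1 of the 6 was below 0 and 2 were above 0, and on both RWR chips 2 were below 0 and 2 above. Itgam, named after its values were seen, was at -0.11 in WR and -0.28 in RWR.

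**Figure D4:**
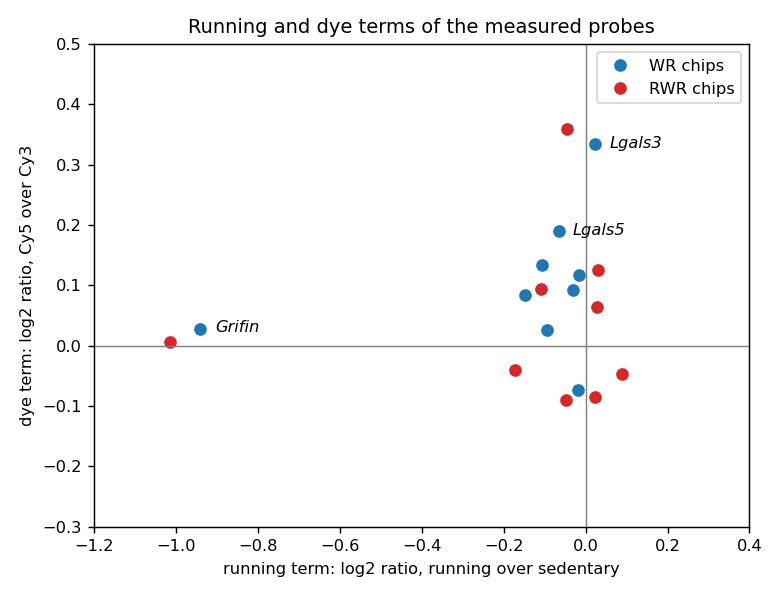
Running term (mean log2 ratio of the 2 chips, running over sedentary) against the dye term (log2, Cy5 over Cy3) for the measured member probes in WR and RWR. Grifin has a running term of -0.94 and -1.01 with a dye term near 0, whereas Lgals3 has a running term of 0.02 and -0.05 with a dye term of 0.33 and 0.36.

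Lgals3bp encodes the secreted galectin-3-binding protein, a large glycoprotein that carries the glycans to which galectins bind and is not itself a galectin. Its signal (A_44_P1042473) was 1252 and 1266 in Sed beside 1198 and 1078 in WR, and 1433 and 1288 in Sed beside 1525 and 1256 in RWR. Both WR readings lay below those of Sed, and the RWR readings overlapped them. The log2 ratio was -0.06 and -0.23 in WR (mean -0.15 ± 0.12) and 0.09 and -0.04 in RWR (mean 0.03 ± 0.09, SD of 2 chips). The same-dye log2 level was 0.20 higher in RWR than in WR in both dyes, and the 4 Sed readings spanned 10.29 to 10.40.

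Genes of the interferon response are given beside Lgals3bp, whose gene is known to respond to interferon. Of 30 listed genes 21 had a named probe, and 18 were measured in each comparison. Cxcl10, a chemokine for T cells, was called lower in WR (mean log2 ratio -1.52) and in RWR (-1.43). Rsad2, an antiviral enzyme, was called lower in WR (-0.80). On the RWR chips Rsad2 was at -0.54 and -0.61 but was not called, with an error model p of 0.0122 and 0.00533. On both WR chips 15 of the 18 measured genes had a ratio below 0, and on both RWR chips 8 of 18. The share of all measured probes below 0 on both chips was not counted. The median log2 ratio of the 18 genes was -0.31 on the WR chips, beside 0.0031 for all measured probes. On the RWR chips it was -0.11, beside 0.0044. Psmb9, a subunit of the immunoproteasome, was at -0.31 in WR and -0.09 in RWR. Lgals3bp was lower on both chips in WR alone, with an error model p of 0.755 and 0.261 on those chips. The part of the interferon genes in its ratio was not tested.

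Of the tandem-repeat galectins, Lgals4 encodes galectin-4, known mainly from the lining of the gut. Its probe (A_42_P491119) was not well above background in any pool on any chip, with processed signals of 3.32 to 19.6. The raw brightness of its spot was 203 to 257 in Cy3, where the local background was 83 to 88, and 83 to 106 in Cy5, where it was 62.5 to 67. No ratio is given for Lgals4, and its RNA was not detectable at the brightness of these chips.

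Lgals8 encodes galectin-8, which binds glycans exposed on damaged endosomes and marks them for autophagy. At its brighter probe (A_44_P1043457), the signal was 1753 and 1606 in Sed beside 1644 and 1668 in WR, and 1894 and 1607 in Sed beside 1722 and 1653 in RWR. At its dimmer probe (A_44_P116471), it was 439 and 428 in Sed beside 471 and 390 in WR, and 474 and 436 in Sed beside 470 and 380 in RWR. The groups overlapped at both probes. At the brighter probe the mean log2 ratio was -0.02 ± 0.10 for WR and -0.05 ± 0.13 for RWR (SD of 2 chips), and at the dimmer probe -0.01 ± 0.17 and -0.11 ± 0.13. The probes differed in the sign of their dye term, at -0.07 and 0.12 in WR, so that on each of chips 1 and 2 their ratios lay on opposite sides of 0.

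Lgals9 encodes galectin-9, a ligand of the immune checkpoint receptor Tim-3. Its signal (A_44_P423641) was 134 and 135 in Sed beside 140 and 124 in WR, and 155 and 160 in Sed beside 149 and 172 in RWR. The groups overlapped in both comparisons. The log2 ratio was 0.06 and -0.12 in WR (mean -0.03 ± 0.13) and -0.06 and 0.11 in RWR (mean 0.02 ± 0.12, SD of 2 chips). The sign of both means turned over with normexp and without background correction.

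**Figure D5:**
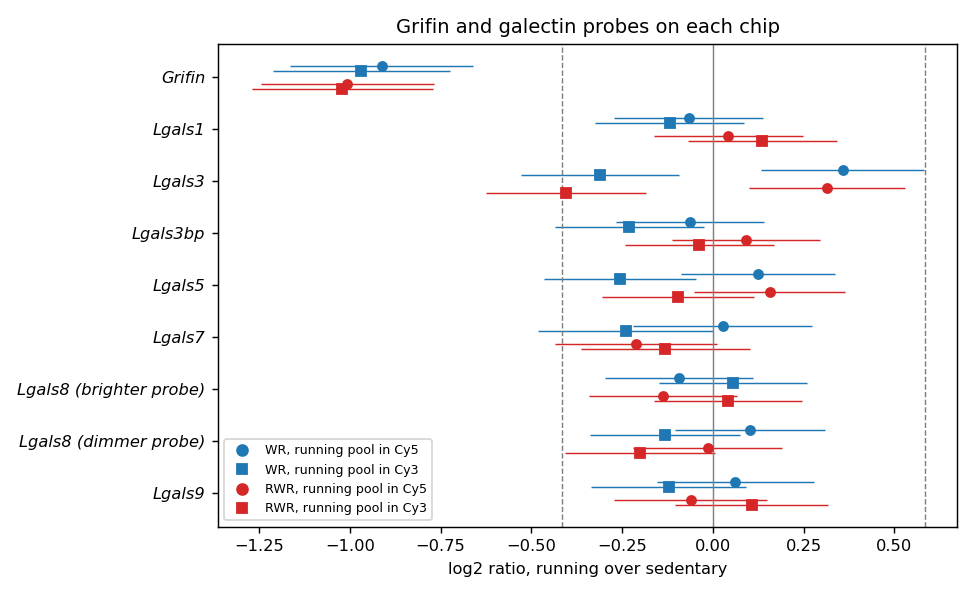
Log2 ratio, running over sedentary, of each measured member probe on each chip (circles, running pool in Cy5; squares, running pool in Cy3) with the software's error of that ratio as a bar and the call limits as dashed lines. The 4 Grifin ratios lie between -1.02 and -0.91, beyond the lower limit, and the 32 ratios of the other probes lie between -0.40 and 0.36, inside both limits.

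The ratio of Grifin was then set beside those of other lens genes. Of 25 listed genes of the lens 14 had a named probe, 6 were measured on all chips, and 0 were called in either comparison. The median log2 ratio of these 6 was -0.02 for WR and 0.08 for RWR. Crybb2 and Cryba4, both crystallins of lens fibre cells, were not well above background in any reading. Cryab, the small heat shock protein αB-crystallin that is also made by glia, was the brightest of the list, with a log2 ratio of -0.20 and -0.31 on the WR chips and -0.22 and -0.27 on the RWR chips. Lenep was at -0.02 in WR and 0.0016 in RWR. The summed signal of the list was 13711 and 11634 in WR beside 15067 and 13929 in Sed, and 14567 and 12182 in RWR beside 16024 and 14139 in Sed. Most of this sum is the signal of Cryab (mean signal 10491), and the part of the lens genes in the ratio of Grifin was not tested.

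None of the measured enzymes that build the glycans bound by galectins was called. Of 26 listed genes of N-glycan branching, galactosylation and sialylation 13 had a named probe, and all 13 were measured. Their mean log2 ratios ranged from -0.10 to 0.06 in WR and from -0.33 to 0.13 in RWR. The lowest in RWR, that of St3gal3, came from chip ratios of 0.16 and -0.81, and the gene was named after its values were seen. Their median log2 ratio was 0.02 for WR and -0.04 for RWR, with the galactosyltransferases B4galt6 at 0.0051 and 0.04 and B4galt3 at 0.03 and -0.04. Of 31 listed glycoproteins and cytosolic proteins that bind galectins 19 had a named probe and 0 were called. Their median was 0.0041 in WR (17 measured) and -0.04 in RWR (18 measured), with the tetraspanin Cd81 at -0.0035 and -0.06 and the neural adhesion molecule L1cam at -0.05 and 0.09.

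Markers of other tissue that a dissection can hold were read in the same way. Of 8 listed choroid plexus genes 7 had a named probe and 1, Ttr, the transthyretin of the cerebrospinal fluid, was called lower in WR, at -0.72 and -0.99 on the chips, and its mean was 0.12 in RWR. The summed choroid plexus signal was 444 and 364 in WR beside 640 and 636 in Sed, and 815 and 716 in RWR beside 729 and 695 in Sed. Most of this sum is the signal of Ttr, and its part in the ratio of Grifin was not tested. For hippocampal neuron genes the median log2 ratio was 0.05 (WR) and 0.02 (RWR) and for astrocyte genes it was 0.0066 and 0.0071. In pooled tissue, fewer cells of a type and less RNA per cell cannot be told apart.

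In the RefSeq gene table, the 3 genes on each side of Grifin are Iqce, Ttyh3 and Lfng and, on the other side, Chst12, Kif19b and Eif3b. No probe was named for Iqce, Ttyh3 or Kif19b. Lfng, the Notch-modifying glycosyltransferase next to Grifin, was not well above background in every reading and had ratios of 0.81 and -0.83 in WR and 0.52 and -0.30 in RWR on the log2 scale, turning over with the dye. Chst12, a sulfotransferase of chondroitin, had a mean of -0.0036 in WR and 0.09 in RWR. Eif3b, a subunit of a translation initiation factor, had a mean of 0.02 in WR and -0.10 in RWR. None of these 3 genes was called.

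The genes with ratios nearest to those of Grifin over the 4 chips were sought among 7366 named probes of 5922 genes that were measured on all chips, by Euclidean distance of the log2 ratios. The nearest was Rpl13, a protein of the large ribosomal subunit, at a distance of 0.41, with ratios of -0.85 and -0.75 in WR and -0.78 and -0.77 in RWR. Another bright probe of Rpl13 (A_44_P138057) had means of -0.03 in WR and -0.05 in RWR, so the likeness holds for 1 probe of that gene. Rsad2 followed at 0.66, with -0.82 and -0.79 in WR and -0.54 and -0.61 in RWR. Next came Myh3, the embryonic skeletal myosin heavy chain, then Psma2, a proteasome subunit, and Pdilt, a disulfide isomerase of the testis, both at 1.19. Grifin had the lowest ratio of these 6 genes on each of the 4 chips. The likeness rests on 4 chips that share the Sed group and is a description of these readings.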

How the data were processed

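Hippocampal RNA, pooled within each group, was hybridized by the authors to 4 chips of a rat oligo array on a single slide, in dye-swap pairs. The scans were processed by the authors with Agilent Feature Extraction 11.0.1.1, which subtracted background with spatial detrending and normalized the dyes by LOWESS. The deposited intensity is the processed signal of each dye, and raw median intensity of spot and local background is deposited beside it. The deposited log10 ratio is Cy5 over Cy3, and its deposited error is a score of the error model. Each deposited p-value comes from the error model of a single chip. The deposited flags mark spots well above background, saturated or outlying. The number of chips limits the precision.

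Groups were taken from the label of each dye. Control spots and outlier spots (118 to 140 per chip) were left out, each ratio was expressed as running over sedentary in log2, and spots of a probe were averaged. Accessions of the array, designed on rn4, were looked up without their version in the GRCr8 RefSeq gene table, used for names, and 10768 probes matched 8899 symbols. Calls needed a ratio over 1.5 or under 0.75 and p under 0.01 on both chips. Named were all members, other galectins with a probe, of each other list the called genes and the 2 brightest, 3 neighbours of Grifin on each side and the 5 nearest genes. The brightest probe stood for a gene with several. A gene that this rule names is not reported here. Members and lists were chosen with earlier results of these data known. Alternatives were normexp (offset 50) or no background correction with loess, median centring, the deposited log10 ratio of the series matrix, only probes well above background, each chip left out, the median over probes, no p filter and equal fold limits. Levels used Aquantile in limma 3.58.1 under R 4.3.3. The calling step was run on simulated data with planted changes larger than the Grifin ratios, in probes well above background. Smaller changes and dim probes were not covered. Python 3.11.15 and Biopython 1.88 were used for the rest.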

Additional observations from a re-analysis of the deposited data

Results flagged for a closer look

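Lgals1 had a log2 ratio below 0 on both WR chips and above 0 on both RWR chips, with a mean of WR minus that of RWR of -0.18. Each comparison has a single pool of RNA in each group, and the difference was not tested. Groups of 2 chips are too small for a search for single chips that stand apart.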

How the results depend on the processing

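Each ratio already pairs the Sed and running pools on a chip, and each mean joins the 2 chips of a dye swap. No paired test was possible, because the chips of a pair hold the same pools and leave 1 biological replicate a comparison. No result comes from a test. With normexp background correction the mean log2 ratio of Grifin was -0.32 in WR and -0.55 in RWR, and without background correction -0.39 and -0.47. Under each of these 2 settings 0 member probes were called in WR and 0 in RWR, in place of 1, and the cause was not tested. The probes called lower among all probes were 12 in WR and 20 in RWR with the deposited ratios, 5 and 13 with normexp, and 6 and 8 without background correction. With a chip left out, the Grifin ratio ranged from -0.97 to -0.91 in WR and from -1.02 to -1.01 in RWR, and the member probes called from 1 to 1. Median centring and equal fold limits left the direction and the calls of Grifin as they were. The series matrix, the filter on dim probes, the median over probes and no p filter could not change them. The series matrix holds the same deposited ratios, Grifin has a single probe that was measured, and leaving out the p filter only loosens a call. Of the 28 mean log2 ratios of the other members under the 2 background settings, 3 moved by more than the SD of the 2 chips. They were Lgals1 in WR (-0.05 with normexp) and Lgals7 in RWR (-0.08 with normexp and -0.08 without correction). The sign of a mean changed in 7 of the 28, for Lgals3 in WR (-0.12 and -0.03), Lgals7 in WR (0.03 with normexp) and Lgals9 in WR (0.02 and 0.0018) and in RWR (-0.03 and -0.03). For dim probes such as those of Lgals7 (mean signal 71.0) and Grifin (80.6), the background limits what the ratio can show.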

Other observations

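Of 11 other galectin genes listed, a probe was named for Lgals2, known from the gut. Its signal (A_42_P743682) was 35.4 and 21.8 in Sed beside 31.7 and 29.4 in WR, and 33.7 and 32.2 in Sed beside 21.9 and 34.3 in RWR, and all readings were well above background. The log2 ratio was -0.16 and 0.43 in WR (mean 0.14 ± 0.42) and -0.62 and 0.09 in RWR (mean -0.27 ± 0.51, SD of 2 chips). The groups overlapped, and the gene was not called.

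Cd44, a hyaluronan receptor that carries glycans bound by galectins, was chosen after its values were seen. It had log2 ratios of -0.38 and -0.29 on the WR chips and -0.31 and -0.29 on the RWR chips, and it was not called.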
